A study of Mus musculus with 80 samples.

Results

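The pair of libraries described here came from mouse embryonic stem (ES) cell lines that served as controls in a study of the SALL zinc-finger proteins and the TET dioxygenases. One is labelled as the wild-type cells for the Sall1/Sall4 double knockout (below, the wild type), and the other as Sall1flox/-, the Sall1 het, which carries 1 floxed and 1 null Sall1 allele. The 2 libraries were taken by their labels from the 80 samples of the series, and their tables share 23228 gene symbols, of which 8617 stood at 5 or more in at least 1 of the 2 and entered the comparison. Values are FPKM (fragments per kilobase of transcript, scaled to the mapped fragments of the library). Knockout libraries labelled Sall1-/-/Sall4-/- (DKO) and Sall1Δ/- (Sall1 KO), and libraries of Sall4 KO cells transfected with wild-type or with mutant SALL4A, are used only to place the pair.

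All 6 of these RNA-seq libraries are labelled C57BL/6J, while the chromatin samples made from the same biosample as the wild type are labelled 129P2/OlaHsd and line E14.1. The growth protocol printed with every library is worded for TT2 ES cells, grown on gelatin without feeder cells and with leukaemia inhibitory factor (LIF). The sources used here do not give the parental line, the number of clones or the passage of either control. The wild type and the DKO tables list identical symbols, as do the Sall1 het and the Sall1 KO tables, but the 2 sets differ from each other by 7 symbols each way, so that line, culture and the making of the tables cannot be told apart in this pair. With 1 library a side there is no replicate, no test and no error, and every difference below is a description of these 2 libraries.

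Mouse ES cells are grown from the inner cell mass of the blastocyst and can sit at different points of a range that runs from a naive state, held by LIF signalling and factors such as ESRRB, KLF4, TBX3 and TFCP2L1, to a formative or primed state, in which FGF and ERK signalling, OTX2 and POU3F1 and the DNA methyltransferases DNMT3A and DNMT3B are more active. The core factors OCT4 (Pou5f1) and SOX2 are present throughout. SALL4 and SALL1 are zinc-finger transcription factors of this network, and SALL4 recruits the nucleosome remodelling and deacetylase (NuRD) complex.

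Among the most abundant genes that separated the pair were the metallothioneins Mt1 and Mt2, and among the largest differences in matrix genes was Cyr61, a secreted matrix protein and a known target of the TEAD factors that partner YAP. Their promoters are shown because they hold the short motifs for which these genes are known. The sequences are those of RefSeq on GRCm38.p6, each from 250 bases before to 50 bases after the start of the gene, 5′ to 3′ on the strand of the gene. Mt1 covers chr8:94178839-94179138 (+ strand), Mt2 covers chr8:94172368-94172667 (+ strand) and Cyr61, listed there as Ccn1, covers chr3:145649936-145650235 (- strand). Capitals mark, on either strand, TGCACNC or TGCGCNC, the core of the metal response element, in the metallothioneins, and GGAATG, the core of the TEAD site, in Cyr61.
Mt1: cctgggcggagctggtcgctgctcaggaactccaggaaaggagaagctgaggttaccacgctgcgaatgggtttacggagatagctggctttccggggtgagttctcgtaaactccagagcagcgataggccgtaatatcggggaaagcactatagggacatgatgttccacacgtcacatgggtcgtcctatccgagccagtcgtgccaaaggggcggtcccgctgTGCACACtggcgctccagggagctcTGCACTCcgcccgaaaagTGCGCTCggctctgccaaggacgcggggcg
Mt2: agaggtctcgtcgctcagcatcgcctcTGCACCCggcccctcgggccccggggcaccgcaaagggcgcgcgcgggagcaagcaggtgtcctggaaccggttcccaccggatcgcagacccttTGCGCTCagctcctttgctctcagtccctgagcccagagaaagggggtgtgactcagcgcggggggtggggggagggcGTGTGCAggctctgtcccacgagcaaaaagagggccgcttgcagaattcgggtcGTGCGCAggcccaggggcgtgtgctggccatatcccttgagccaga
Cyr61: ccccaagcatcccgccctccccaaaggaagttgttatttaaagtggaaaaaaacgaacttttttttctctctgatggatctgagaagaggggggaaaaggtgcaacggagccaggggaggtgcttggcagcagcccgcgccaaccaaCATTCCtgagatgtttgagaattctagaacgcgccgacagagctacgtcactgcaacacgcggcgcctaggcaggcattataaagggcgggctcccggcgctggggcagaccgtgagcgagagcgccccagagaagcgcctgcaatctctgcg

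Mt1 held 3 and Mt2 held 4 matches to the metal response core. A match was present in 25.7% of the 32851 promoters in the table and 3 or more in 1.97%, and among genes past the level filter used below the shares were 36.7% and 3.5%. For genes 2-fold higher in the wild type they were 33.3% and 3.42%, and for genes 2-fold higher in the Sall1 het 32.2% and 3.53%. Cyr61 held 1 match to the TEAD core, which occurred in 14.7% of all promoters, in 11.8% of those of genes past the filter, in 16.9% of the 468 promoters found for genes 2-fold higher in the wild type and in 14.1% of the 397 found for genes 2-fold higher in the Sall1 het. These matches are letters in a window and were not tested for binding.

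The pair was compared on log2(FPKM + 1) after a median-ratio scaling that moved each table by under 1%, and a difference is given as Sall1 het minus wild type. Of the 8617 genes, 490 (5.69%) were at least 2-fold higher in the Sall1 het and 527 (6.12%) at least 2-fold higher in the wild type, so that 11.8% lay 2-fold apart. The median difference was 0.00161 and the median absolute difference 0.303, a 1.23-fold distance. Most genes were close: 6449 of them (74.8%) lay within 1.5-fold. At 4-fold the counts were 129 and 133 genes, and at 8-fold 55 and 59.

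**Figure D1:**
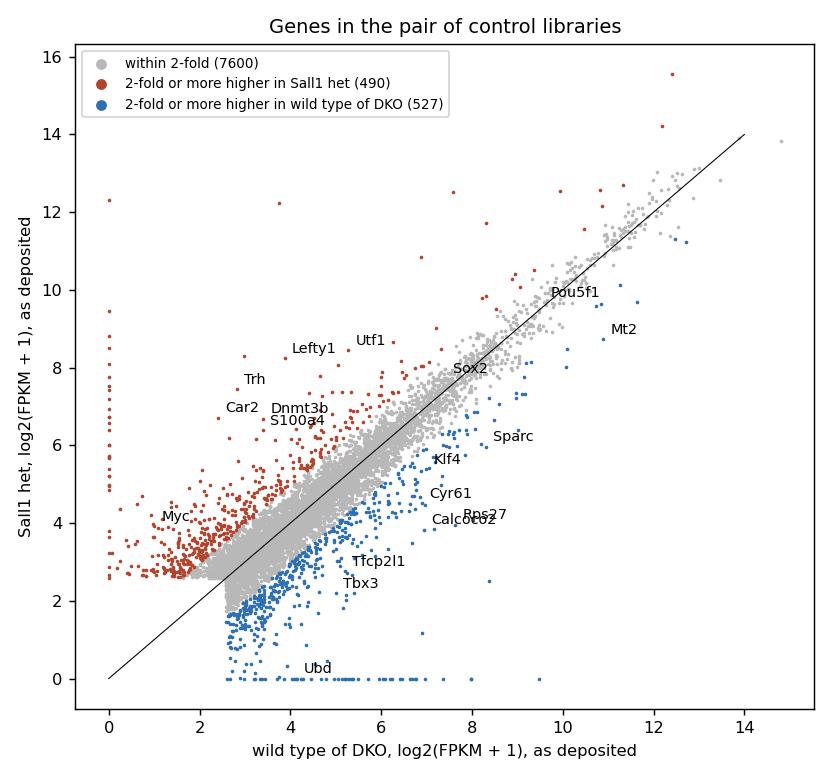
Deposited levels of the 8617 genes in the wild type of the DKO (x axis) and the Sall1 het (y axis), both as log2(FPKM + 1), 1 point a gene, with the line of equal values. The 490 red genes were 2-fold or more higher in the Sall1 het and the 527 blue genes in the wild type, while Pou5f1 and Sox2 lie close to the line; points on the axes are entries listed at 0 in 1 table.

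Entries for very short RNAs were part of these counts: of 210 microRNA and small nucleolar RNA entries, 123 (58.6%) were 2-fold apart. Leaving out predicted genes, clone names, pseudogenes and small RNAs, 767 of 7707 genes (9.95%) were 2-fold apart. Genes 2-fold apart were found at every level: among those 7707 genes the share was 11.6% at 5 to 10 FPKM, 10.3% at 50 to 200 FPKM and 6.53% at 200 FPKM or more.

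The distance between the controls was set beside the other pairs that the 6 libraries allow. Sall1 het and Sall1 KO were the nearest of the 15 pairs, with 1.35% of 8173 genes 2-fold apart, and the wild type and the DKO stood at 8.49% of 8621 genes. The control pair, at 11.8%, ranked 8 of 15 from the nearest. All 8 pairs that set the wild type or the DKO against any of the other 4 libraries lay between 11.8% and 17.2%, and the remaining 7 pairs lay between 1.35% and 8.67%. The distance between the 2 controls was thus larger than that between either control and the knockout labelled as its partner, in these single libraries.

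**Figure D2:**
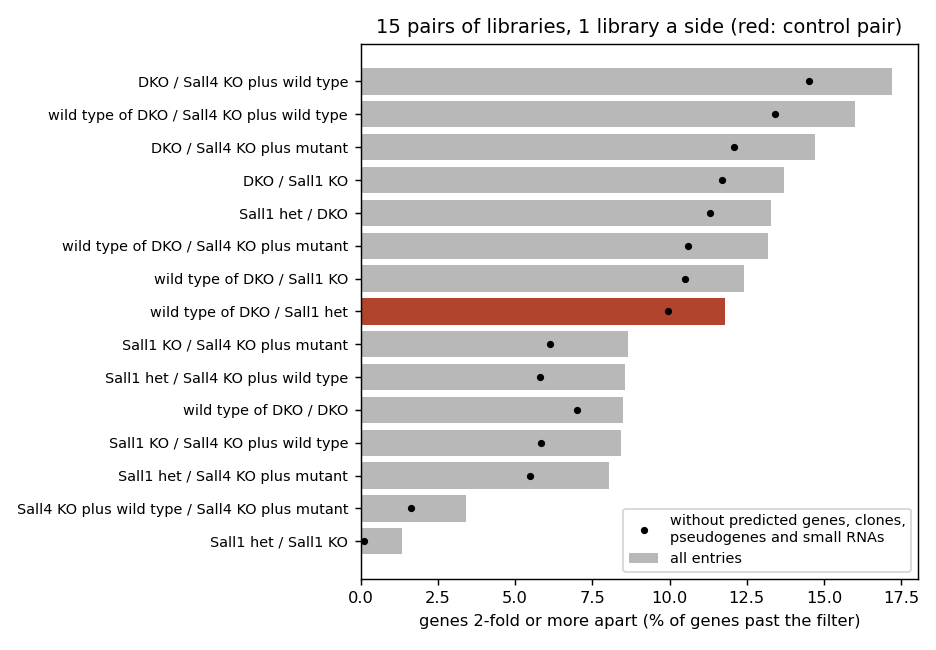
Share of genes 2-fold or more apart (x axis, percent of genes past the level filter) for each of the 15 pairs of libraries; bars count all entries, and points leave out predicted genes, clones, pseudogenes and small RNAs. The control pair, in red, stands at 11.8%, and the Sall1 het with the Sall1 KO at 1.35%.

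The labelled genotypes were checked first. Sall1 stood at 13.9 FPKM in the wild type, 21.8 in the Sall1 het, 2.27 in the library labelled DKO and 13.3 in the library labelled Sall1 KO (mm9, chr8:91551142-91568061). The het line, with 1 null allele, was thus not the lower of the controls, and its log2 difference was 0.62. Sall4 stood at 17.6 in the wild type, 18.6 in the Sall1 het, 109 in the library labelled DKO and 17.8 in the Sall1 KO (mm9, chr2:168573831-168592701). A value for the whole gene does not show whether exons are missing, and which exons were deleted is not stated, so the levels check the labels of the pair only in that both controls hold Sall1 and Sall4 RNA. Sall2 was at 1.6 in the wild type and 5.78 in the Sall1 het, a difference of 1.39, and Sall3 was at 1.84 and 0.258, under the filter. Among genes within 2 Mb of Sall1, 1 of 6 was 2-fold apart, the chromatin remodeller Chd9 at 1.23. Within 2 Mb of Sall4 it was 1 of 23, the flippase gene Atp9a at -1.33. Over all genes past the filter the share 2-fold apart was 11.8%, and counts this small do not set these regions apart from it.

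Both libraries carried the marks of ES cells. All 9 pluripotency markers examined were at 5 FPKM or more in each, with Pou5f1 at 766 and 824, Sox2 at 170 and 210, and Dppa5a at 4610 and 4040 in the wild type and the Sall1 het. Of 7 primitive endoderm markers none reached 5 FPKM in either library, and the summed level of the 7 was 3.10 in the wild type and 4.63 in the Sall1 het. Trophoblast markers summed to 8.35 and 4.13, with Krt7 at 5.31 in the wild type and Cdx2 and Elf5 below 1 in both. Of 5 mesoderm markers, Gsc, a homeobox gene of the organizer, was at 7.78 in the wild type and 0.287 in the Sall1 het, and the other 4 were below 1 in both. The 6 neural markers summed to 37.7 and 40.5. Tubb3, at 35.7 and 36.7, made up most of that, and the others were under 5 FPKM in both. Y-linked Eif2s3y was at 46.7 and 49.4, Ddx3y at 12.4 and 7.61 and Uty at 3.01 and 3.94, and Xist was at 2.17 and 1.31.

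The core factors Pou5f1 and Sox2 were at nearly the same level in the 2 libraries, and a set of other genes of the core list was much higher in the Sall1 het. Of 21 core genes past the filter, 7 were 2-fold higher in the Sall1 het and 0 in the wild type, with a list median of 0.38 beside 0.00161 over all genes. Here and in the lists that follow, the shares to read these counts against are the 5.69% of all genes that were 2-fold higher in the Sall1 het and the 6.12% that were 2-fold higher in the wild type. Utf1, a chromatin-bound factor of undifferentiated cells, stood at 37.7 in the wild type and 349 in the Sall1 het, a difference of 3.19. Myc stood at 1.01 and 14.2 (2.93) and its family member Mycn at 16.5 and 84.6 (2.30). The RNA-binding protein Lin28a, which blocks let-7 maturation, was at 25.2 and 80.1 (1.64), and Lin28b at 1.46 and 8.07 (1.89). Pou5f1, Sox2, Zfp42 and Tdgf1 lay within 0.32 of equality, while Nanog was lower in the Sall1 het, at 277 against 425 (-0.60).

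Naive factors leaned the other way. Of 18 naive genes past the filter, 6 were 2-fold higher in the wild type and 1 in the Sall1 het, and 15 of the 18 lay below 0, with a median of -0.82. The T-box factor Tbx3 stood at 31.2 in the wild type and 3.57 in the Sall1 het (-2.81; mm9, chr5:120120677-120134610), and Tfcp2l1, a target of LIF and STAT3, at 35.9 and 5.79 (-2.43; chr1:120524521-120581745). Klf4 was at 126 and 40.7 (-1.59), Prdm14 at 14.2 and 3.96 (-1.60), the surface protein gene Pecam1 at 30.3 and 10.8 (-1.40) and Nr5a2 at 12.4 and 5.52 (-1.03). Esrrb, at 110 and 56.6, came just short of 2-fold (-0.94). The naive gene 2-fold higher in the Sall1 het was Gbx2, a homeobox gene that LIF induces, at 3.26 in the wild type and 16.0 in the Sall1 het (2.01). Dppa3, at 58.4 and 81.1 (0.48), and Manba, at 12.2 and 15.5 (0.33), also lay above 0.

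Primed and formative epiblast genes had the highest median of any list with 6 or more genes past the filter, 2.13. Of 11 such genes, 9 were 2-fold higher in the Sall1 het, 0 in the wild type, and all 11 were above 0. Several of them, among them Pou3f1, Fgf15, Lef1 and Otx2, passed the filter only through the Sall1 het, where they were high. With the level filter at 1 FPKM the median was 1.79, and with it at 20 it was 2.15. Of the members under the filter, Nkx1-2 was higher in the wild type, at 0.379 and 0.0441, and the others were higher in the Sall1 het. The de novo DNA methyltransferase gene Dnmt3b stood at 9.59 in the wild type and 102 in the Sall1 het (3.29; mm9, chr2:153475189-153513466). The POU factor Pou3f1 was at 1.24 and 16.3 (2.95), the growth factor Fgf15 at 1.46 and 13.8 (2.60), and the WNT effector Lef1 at 0.554 and 6.44 (2.27). Tcf15, a basic helix-loop-helix factor of cells leaving the naive state, was at 15.2 and 71.0 (2.16), and Otx2, a homeobox factor of the formative epiblast, at 4.27 and 22.0 (2.13). Fgf5, the classical epiblast marker, was low in both, at 0.0605 and 2.96, and did not pass the filter.

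**Figure D3:**
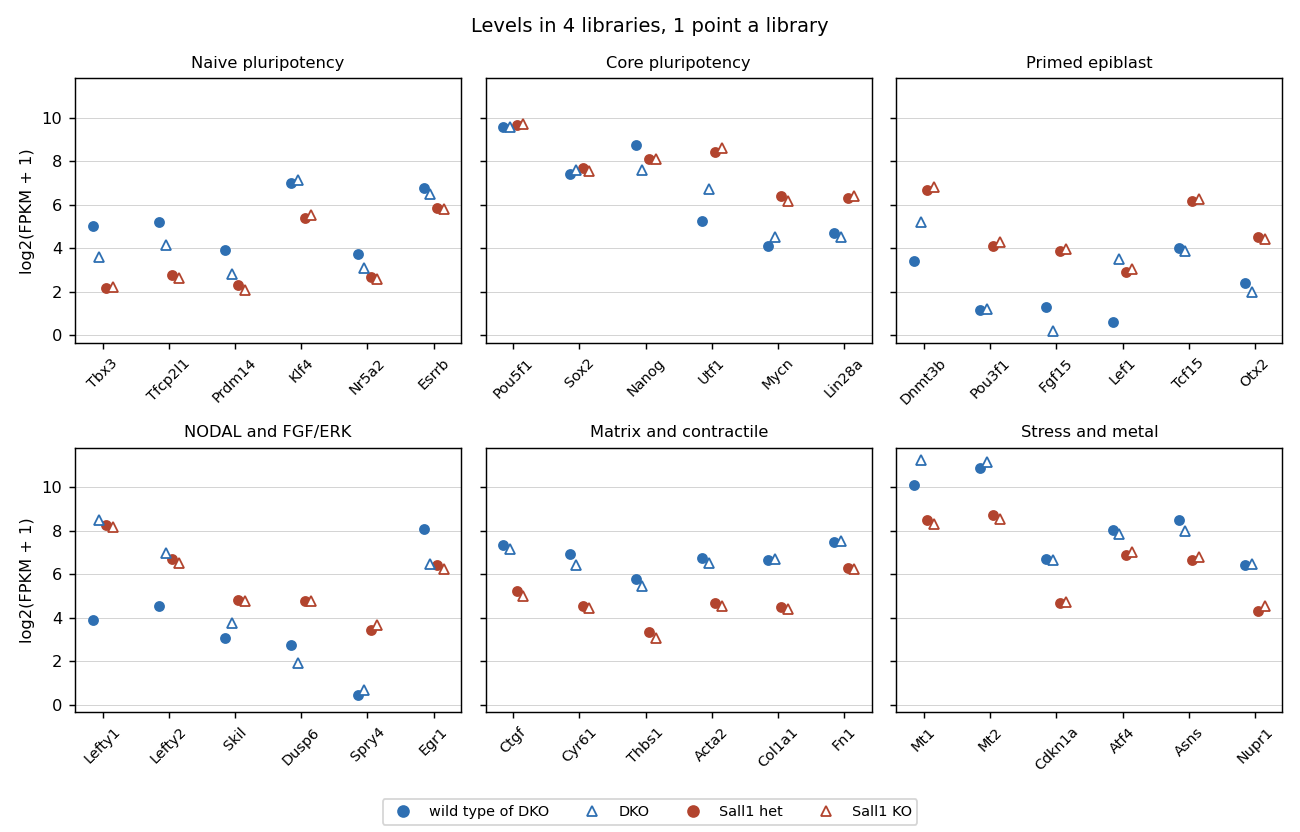
Levels of 36 genes in 4 libraries as log2(FPKM + 1), 1 point a library: wild type of the DKO (blue circle), DKO (blue triangle), Sall1 het (red circle) and Sall1 KO (red triangle). Pou5f1 and Sox2 coincide in all 4, Tbx3 and Tfcp2l1 are lowest in both Sall1 lines, and Lefty1 and Lefty2 stand apart in the wild type, with the DKO near the Sall1 het.

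Among the signalling lists the largest difference was in LEFTY, the secreted inhibitor of NODAL. Lefty1 stood at 13.7 in the wild type and 303 in the Sall1 het (4.38; mm9, chr1:182865169-182868532), and its close paralog Lefty2 at 22.1 and 104 (2.19); reads that fit both paralogs may have been split by the counting. Nodal itself was level, at 30.1 and 27.9, as was its co-receptor gene Tdgf1. Among other members, the SMAD co-repressor gene Skil was at 7.38 and 26.7 (1.73) and the SMAD partner Foxh1 at 13 and 27.7 (1.04). Pcsk6, which encodes a proprotein convertase that processes NODAL, was lower in the Sall1 het, at 4.21 against 15.5 (-1.65). In all, 5 of the 14 genes of the list were 2-fold higher in the Sall1 het and 1 in the wild type, with a median of 0.25, which was 0.11 with the level filter at 1 FPKM and 1.04 with it at 20.

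FGF and ERK feedback genes did not move as a block. Of 18 past the filter, 7 were 2-fold higher in the Sall1 het and 3 in the wild type. On the high side were feedback inhibitors: Spry4 at 0.349 and 9.67 (2.99), the ERK phosphatase gene Dusp6 at 5.58 and 26.0 (2.05), Spred1 at 3.17 and 13.7 (1.83) and Dusp4 at 2.09 and 9.39 (1.76). On the low side were immediate early genes: Egr1 at 269 and 85.0 (-1.64), Fos at 170 and 61.9 (-1.43) and Egr2 at 8.28 and 3.31 (-1.10). Fgf4, the ligand made by ES cells, was at 67.2 and 40.9 (-0.69). The median of 0.46 turned to -0.22 when only genes at 20 FPKM or more in at least 1 library were kept, a limit that Spry4, Spred1 and Dusp4 do not reach.

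LIF and STAT3 targets were 2-fold apart in 4 of 14 genes, 2 in each direction. Myc and Gbx2 were the pair higher in the Sall1 het and Tfcp2l1 and Klf4 the pair higher in the wild type, while Socs3, a direct STAT3 target, was at 27 and 24.4 and Stat3 at 20.2 and 15.7. Of 8 WNT genes past the filter, Lef1 was 2-fold higher in the Sall1 het, and the homeobox gene Cdx1, at 6.90 and 0.154 (-2.77), and the WNT carrier gene Wls, at 15.5 and 5.20 (-1.40), were 2-fold higher in the wild type. Ctnnb1, which encodes beta-catenin, was level at 187 and 193. In the BMP list 2 of 6 genes were 2-fold higher in the Sall1 het: the ligand gene Bmp4, at 1.34 and 7.69 (1.90), and Id1, an inhibitor of helix-loop-helix factors, at 6.34 and 14.3 (1.07); Id2 and Id3 were within 0.36 of equality.

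Among writers and readers of DNA methylation, 3 of 8 genes were 2-fold higher in the Sall1 het and 0 in the wild type. Beside Dnmt3b, the catalytically inactive cofactor gene Dnmt3l was at 24.9 and 153 (2.59) and Dnmt3a at 5.88 and 18.8 (1.54). The maintenance enzyme gene Dnmt1 was level at 42.8 and 45.2, and its partner Uhrf1 was at 100 and 68.6 (-0.53). The TET genes, whose products oxidise 5-methylcytosine, were less far apart: Tet1 was at 10.8 and 13 (0.27), Tet2 at 6.43 and 4.41 (-0.45), and Tet3 below 1 in both. Tdg, the glycosylase that removes oxidised bases, was at 8.57 and 8.91. In the list of oxidation and base excision genes the members 2-fold apart were stress-induced GADD45 genes, Gadd45g at 6.83 and 21.6 (1.54), Gadd45a at 15.6 and 46.5 (1.53) and Gadd45b at 26.6 and 10.7 (-1.22). No NuRD subunit of 11 was 2-fold apart, and these ranged from Mta2 at -0.67 to Mta1 at 0.64.

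Many genes of the matrix, of contractile cells and of fibroblasts were lower in the Sall1 het. Of 25 mesenchymal and contractile genes, 11 were 2-fold higher in the wild type and 2 in the Sall1 het, with a median of -0.61. Ctgf was at 162 in the wild type and 36.1 in the Sall1 het (-2.12), Cyr61 at 119 and 21.9 (-2.38) and the matrix protein gene Thbs1 at 53.7 and 8.94 (-2.45). Smooth-muscle actin genes followed, with Actg2 at 19.5 and 2.62 (-2.49) and Acta2 at 105 and 24.8 (-2.03). The members higher in the Sall1 het were S100a4, a calcium-binding protein gene, at 9.53 and 83.0 (3.01), and the epithelial adhesion gene Epcam at 40.9 and 118 (1.51). S100a6 came just short of 2-fold in the same direction, at 109 and 212 (0.97). Cdh1, which encodes E-cadherin, was level at 63.0 and 63.9.

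Fibroblast markers moved with these genes: 7 of the 13 genes of that list past the filter were 2-fold higher in the wild type and 1 in the Sall1 het, with a median of -1.07, which was -0.40 with the level filter at 1 FPKM and -1.80 with it at 20. The 10 feeder markers summed to 219 FPKM in the wild type and 79.7 in the Sall1 het. Collagen genes made up most of that sum, with Col1a1 at 97.9 and 21.6 (-2.12) and Col1a2 at 77.9 and 18.0 (-2.04). The defining fibroblast genes Dcn and Lum were at 0.932 and 0.399 in the wild type and at 2.13 and 0.762 in the Sall1 het, and Pdgfrb, Twist1 and Prrx1 stayed below 3 in both. Thy1, at 10.2 and 21.1, and the collagen genes Col6a1, at 6.22 and 9.31 (0.52), and Col6a2, at 3.77 and 6.20 (0.60), were higher in the Sall1 het. No marker of the 10 was at 0. In bulk RNA, more cells of a type and more RNA per cell cannot be told apart, and the part of other cells in these differences was not tested.

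Of 8 primitive endoderm genes past the filter, 4 were 2-fold higher in the wild type and 2 in the Sall1 het. The first were basement membrane genes, with Sparc at 317 and 61.7 (-2.33), the laminin gene Lama1 at 7.02 and 1.82 (-1.50), Col4a1 at 13.1 and 4.64 (-1.31) and Col4a2 at 9.70 and 3.59 (-1.21). The second were the simple keratins Krt18, at 4.49 and 14.7 (1.53), and Krt8, at 4.79 and 12.4 (1.22), while the lineage factors Gata4, Gata6 and Sox17 were below 1 in both libraries. The other laminin genes of the list were not 2-fold apart and lay in opposite directions, Lamc1 at 52.4 and 27.4 (-0.9) and Lamb1 at 13.6 and 19.6 (0.51). Trophoblast genes past the filter split 4 to 3: the imprinted genes Peg10, at 3.11 and 18.8 (2.28), and Phlda2, at 29.1 and 112 (1.91), stood with the keratins on the side of the Sall1 het, and Tead4, at 9.32 and 2.03 (-1.76), Esx1, at 5.33 and 0.935 (-1.70), and Krt7 on the side of the wild type.

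Genes of the two-cell-like state, a rare and transient condition of ES cells marked by the Zscan4 cluster, were higher in the wild type. Of 10 past the filter, 9 were 2-fold higher there and 0 in the Sall1 het, with a median of -1.62. Zscan4f was at 132 in the wild type and 42.0 in the Sall1 het (-1.62), Zscan4c at 106 and 31.4 (-1.72) and Zscan4d at 51.3 and 19.8 (-1.32). The Zscan4 genes are near-identical copies, so the value of each is uncertain and the 6 copies count as 1 observation. Tmem92, a gene outside that cluster, was at 9.69 and 1.88 (-1.88), while Eif1a was near level, at 78.1 and 70.8.

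Imprinted genes, of which 1 parental allele is expressed, lay on both sides. Outside the Dlk1-Dio3 region 8 of 21 were 2-fold higher in the Sall1 het and 3 in the wild type. The growth restrictor gene Cdkn1c was at 3.26 and 27.6 (2.75), Nnat at 2.74 and 20.9 (2.56), Mest at 8.67 and 26.9 (1.54) and Snrpn at 38.6 and 106 (1.44). In the other direction Plagl1 was at 8.90 and 0.777 (-2.47), Grb10 at 17.4 and 2.74 (-2.29) and H19 at 69.8 and 25.5 (-1.40), with its neighbour Igf2 at 23.0 and 12.4 (-0.83). In the Dlk1-Dio3 region Meg3 was at 73.6 and 89.3 (0.29), Rian at 67.1 and 101 (0.60), Mirg at 6.05 and 14.5 (1.15) and Dio3 at 5.37 and 0.442 (-2.14), and Dlk1 was under the filter at 0.565 and 2.57. Of 11 germline genes, 2 were 2-fold higher in the Sall1 het, the synaptonemal complex gene Sycp3 at 9.53 and 29.3 (1.54) and the piRNA pathway gene Mael at 6.96 and 18.6 (1.31), and 3 in the wild type, led by the receptor gene Kit at 43.6 and 9.62 (-2.06).

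In the stress lists, the genes 2-fold apart were mostly higher in the wild type. The stress-induced GADD45 genes described above are not in these lists: Gadd45a (1.53) and Gadd45g (1.54) were higher in the Sall1 het and Gadd45b (-1.22) in the wild type. Of 22 p53 targets, 5 were 2-fold higher in the wild type and 0 in the Sall1 het, and 19 lay below 0, with a median of -0.53. The cell cycle inhibitor gene Cdkn1a was at 101 and 24.8 (-1.98), Gdf15 at 18.8 and 4.45 (-1.85) and Phlda3 at 61.2 and 22.5 (-1.39), and Trp53 itself was level at 170 and 186. Among 22 genes of the amino acid stress response, 3 were 2-fold higher in the wild type and 1 in the Sall1 het. The transcription factor gene Atf4 was at 263 and 115 (-1.17), the asparagine synthetase gene Asns at 355 and 98.9 (-1.82) and Nupr1 at 85.1 and 18.7 (-2.12), with the amino acid transporter gene Slc7a3 on the other side, at 43.1 and 86.9 (1.01). The metallothionein genes, whose products bind zinc and copper and whose promoters are shown above, were at 1890 and 424 for Mt2 (-2.14) and 1090 and 358 for Mt1 (-1.59). They were the members of the 10 metal and iron genes past the filter that lay 2-fold apart, and the ferritin gene Ftl1 was at 4500 and 2810 (-0.67). None of 18 heat shock and unfolded protein genes was 2-fold apart, and the chaperone gene Calr was lowest, at 386 and 211 (-0.85).

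Of 21 cholesterol synthesis genes 20 were lower in the Sall1 het, none of them 2-fold, with a median of -0.47; the sterol isomerase gene Ebp was at 24.7 and 13.8 (-0.79). Nuclear genes of oxidative phosphorylation had a median of -0.16, with 52 of 66 below 0 and 0 that were 2-fold apart. Of 31 glycolysis and hypoxia genes, 2 were 2-fold higher in the Sall1 het and 3 in the wild type, shares near the 5.69% and 6.12% of all genes; Pdk1, which encodes a kinase that restrains pyruvate dehydrogenase, was at 8.09 and 43.7 (2.31), and Hk1 at 37.1 and 11.3 (-1.62). Cell cycle genes were close, 1 of 30 being 2-fold apart, the cyclin gene Ccnd3 at 232 and 83.7 (-1.45). Among 11 fatty acid synthesis genes the desaturase gene Scd1 was 2-fold apart, at 31.6 and 12.7 (-1.24). Of 19 polycomb and trithorax genes 1 was 2-fold apart, Jarid2, a subunit of the polycomb complex that methylates H3K27, at 21 and 55.5 (1.37), and of 17 genes of H3K9 methylation and silencing 0.

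Replication-dependent histone genes had 15 of 42 members 2-fold higher in the Sall1 het and 0 in the wild type, with a median of 0.70. Several of the 15, among them Hist2h2bb, Hist1h2bf and Hist1h2bl, passed the filter only through the Sall1 het, where they were higher. Hist2h2bb was at 0.981 and 14.8 (3.01), Hist1h2bf at 2.65 and 11.3 (1.77) and Hist1h2bl at 4.78 and 16.2 (1.58). Their RNAs lack a poly(A) tail, how RNA was selected for these libraries is not stated, and among genes at 20 FPKM or more in at least 1 library the median was -0.07. Cytosolic ribosomal protein genes had a median of 0.17, with 58 of 76 above 0. Their outliers were Rps27, at 198 and 14.6 (-3.66), and Rpl26, at 298 and 890 (1.59); genes of this class have many processed copies, so these 2 values are uncertain. Of 14 interferon and antigen presentation genes, 4 were 2-fold higher in the Sall1 het, among them the immunoproteasome genes Psmb8, at 0.143 and 6.2 (2.66), and Psmb9, at 1.30 and 8.05 (1.99), and the tetherin gene Bst2, at 21.1 and 90.4 (2.06), and 1 in the wild type, Oas1a at 8.48 and 2.43 (-1.46).

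**Figure D4:**
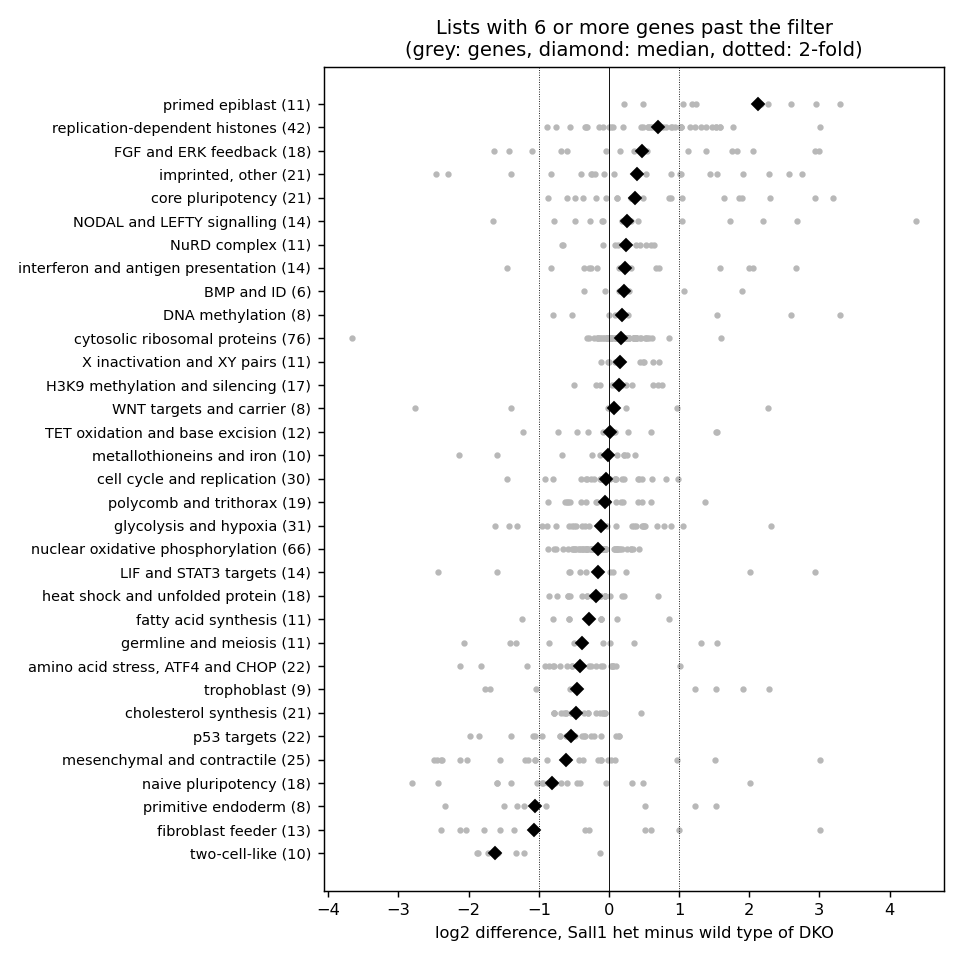
Log2 difference, Sall1 het minus wild type of the DKO, of each gene (grey) in the lists with 6 or more genes past the filter, with the list median (black diamond) and the number of genes in brackets; dotted lines mark 2-fold. Medians run from -1.62 for the two-cell-like list to 2.13 for the primed epiblast list, and most lists have genes on each side of 0.

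The largest single differences lay partly outside these lists. Highest in the Sall1 het was Trh, the thyrotropin-releasing hormone gene, at 6.06 in the wild type and 173 in the Sall1 het (4.63; mm9, chr6:92192055-92194642). The carbonic anhydrase genes Car2, at 4.33 and 104 (4.31), and Car4, at 0.183 and 19.6 (4.13), came close behind Lefty1. Others were the ectonucleotidase gene Enpp3 at 0.666 and 25.1 (3.98), the epithelial splicing regulator Esrp1 at 0.531 and 21.7 (3.90), the amino acid transporter gene Slc7a7 at 5.25 and 72.4 (3.56), Pdzd4 at 3.18 and 40.6 (3.33), the chemokine gene Ccl2 at 0.914 and 17.6 (3.29) and the kinase gene Pim2 at 8.42 and 70.9 (2.94). Snhg9, a host gene of a small nucleolar RNA, was at 32.0 and 269 (3.04), and reads of the host and of the small RNA cannot be told apart in it.

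On the side of the wild type, Ubd, a ubiquitin-like modifier gene, was at 16.5 and Saa3, a serum amyloid gene, at 13.6, and both were listed at 0 in the Sall1 het and in the Sall1 KO. Btg3, an antiproliferative gene, was at 15.5 in the wild type and 0.000428 in the Sall1 het. It was at 4.15 in the Sall1 KO and 23.2 in the DKO, so the Sall1 KO did not share the value near 0. The methyltransferase gene Bhmt was at 12.4 and 0.0253 (-3.70), Lox, which crosslinks collagen, at 41.6 and 3.61 (-3.20), S100a13 at 101 and 10.3 (-3.17), the autophagy receptor gene Calcoco2 at 122 and 13.2 (-3.11; mm9, chr11:95960639-95973276), Olig1 at 8.35 and 0.101 (-3.08), the pattern receptor gene Nod1 at 9.09 and 0.359 (-2.89) and the water channel gene Aqp3 at 70.1 and 9.05 (-2.81). Among abundant genes, the small heat shock protein gene Hspb8 was at 57.6 and 7.92 (-2.70) and Mfge8, which bridges dying cells and phagocytes, at 158 and 30.4 (-2.32).

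The differences were spread over the genome. Chromosome medians ran from -0.11 on chromosome 7 to 0.10 on chromosome X, leaving out chromosome Y, which had 2 genes past the filter and a median of -0.27. On chromosome X, 33 of 261 genes (12.6%) were 2-fold higher in the Sall1 het and 7 (2.68%) in the wild type, beside 5.69% and 6.12% over all genes. Without predicted genes, clones, pseudogenes and small RNAs, 364 of 7707 genes were 2-fold higher in the Sall1 het and 403 in the wild type. On that basis the shares on chromosome X were 8.55% and 2.14%, and those on chromosome 13 were near them, at 8.28% and 3.45%. Chromosome 7 leaned the other way, with 70 of 681 genes (10.3%) 2-fold higher in the wild type and 35 (5.14%) in the Sall1 het. On chromosome 12 the share higher in the wild type was larger, 35 of 309 genes (11.3%), beside 23 (7.44%) in the Sall1 het. Leaving out the same entries as on chromosome X, the shares higher in the wild type were 9.66% on chromosome 7 and 7.26% on chromosome 12. Chromosome 1, at 7.61%, then stood above chromosome 12. Nnt, in which the C57BL/6J strain is known to carry a deletion of some exons, was at 6.83 and 8.00 as a whole-gene value, which does not resolve the exons.

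The knockout libraries made it possible to look at the same genes in a pair that shares no library with the controls, the Sall1 KO minus the library labelled DKO. In that pair 509 of 8729 genes (5.83%) were 2-fold higher in the Sall1 KO and 685 (7.85%) in the DKO. Of the 1017 genes 2-fold apart between the controls, 883 also passed the level filter in the knockout pair. They were 463 of the 490 higher in the Sall1 het and 420 of the 527 higher in the wild type. Genes below the filter in both knockouts, such as Bhmt, were left out, so the shares describe the 883 only. Of the 883, 789 (89.4%) lay in the same direction and 522 (59.1%) were 2-fold apart in that direction. Among all 8306 genes past the filter in both pairs, 74.3% lay in the same direction. Within the 883, genes higher in the Sall1 het had a median of 1.11 in the knockout pair. Those higher in the wild type had a median of -1.24. Across the 8306 genes Pearson's r between the 2 differences was 0.54 and Spearman's rho 0.64; the libraries of each side share their table set, and the Sall1 KO was close to the Sall1 het, so the second pair is not an independent repeat of the first.

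The genes with the largest difference held in both pairs were, on the side of the Sall1 lines, Car4 (4.13 between the controls and 3.14 between the knockouts), S100a4 (3.01 and 3.14), the lysozyme gene Lyz2 (2.97 and 3.41), Pdzd4 (3.33 and 2.96), Tmem54 (3.20 and 2.95), Pou3f1 (2.95 and 3.10) and Spry4 (2.99 and 2.97). On the other side were Ubd and Saa3, described above as listed at 0 in both Sall1 lines and at 18.9 and 15.8 FPKM in the DKO, and Olig1 (-3.08 and -3.38), Nod1 (-2.89 and -4.22), Crxos1 (-3.08 and -2.89), Lox (-3.20 and -2.77), Hspb8 (-2.70 and -2.87), Ccdc80 (-2.58 and -3.05), Pglyrp1 (-2.52 and -4.02) and Plagl1 (-2.47 and -3.06). Of 33 lists with 6 or more genes past the filter in both pairs, the median had the same sign in 20 and opposite signs in 13. In the knockout pair it was 1.61 for primed epiblast genes, -0.68 for naive genes, -0.99 for mesenchymal and contractile genes and -1.19 for two-cell-like genes, each with the sign seen between the controls. Among the 13 with opposite signs were cholesterol synthesis genes (-0.47 between the controls and 0.44 between the knockouts), germline genes (-0.38 and 0.92), amino acid stress genes (-0.41 and 0.11), BMP genes (0.22 and -0.41), NODAL and LEFTY genes (0.25 and -0.09), interferon genes (0.23 and -0.20) and cytosolic ribosomal protein genes (0.17 and -0.17).

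In other genes the wild type stood alone. Lefty1 was at 13.7 in the wild type and at 303, 353 and 283 in the Sall1 het, the DKO and the Sall1 KO. Dnmt3l was at 24.9 in the wild type and at 153, 174 and 182 in the other 3 libraries, and Bst2 at 21.1 and at 90.4, 122 and 99.7. In the reverse direction S100a13 was at 101 in the wild type and at 10.3, 9.78 and 9.15. Counting all entries, 129 were 4-fold or more higher in the Sall1 het and 133 in the wild type. Without predicted genes, clones, pseudogenes and small RNAs, 26 genes 4-fold apart between the controls were less than 2-fold apart between the knockouts. Genes under 5 FPKM in both knockouts, such as Bhmt, are not in the 26. The 129 and 133 include such genes and the kinds of entries left out, so the 26 are not to be read as a share of them. A further 25 entries were 2-fold apart in both pairs but in opposite directions, 11 of them without predicted genes, clones, pseudogenes and small RNAs. The simple keratin gene Krt8, for example, was at 4.79 in the wild type and 12.4 in the Sall1 het, and at 63.9 in the DKO and 14.7 in the Sall1 KO. Zic2, a zinc-finger gene of the primed list, was at 8.23 and 20.7 in the controls, and at 73.3 in the DKO and 20.1 in the Sall1 KO.

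**Figure D5:**
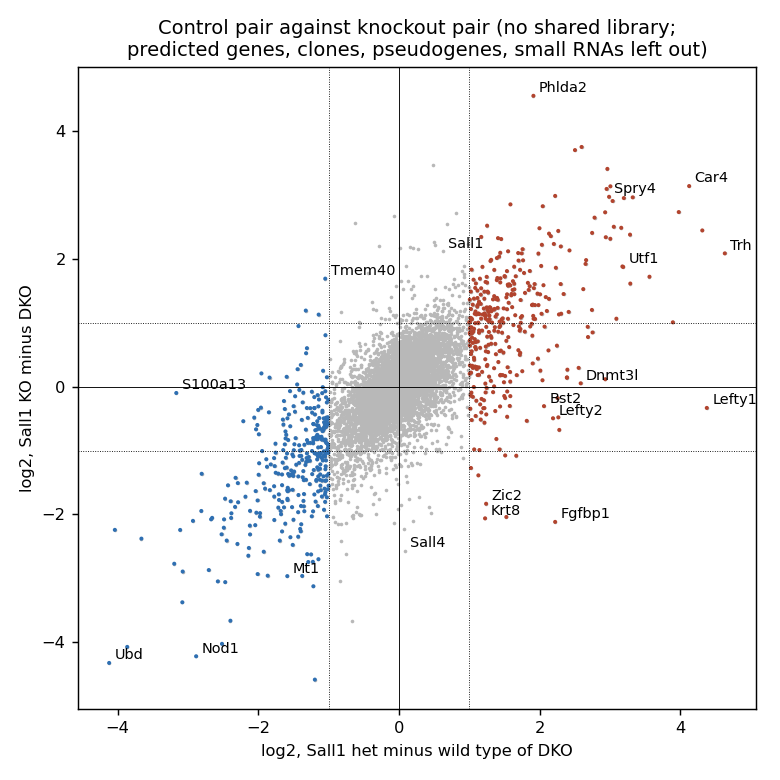
Log2 difference between the controls (x axis, Sall1 het minus wild type of the DKO) and between the knockouts (y axis, Sall1 KO minus DKO), 1 point a gene, red and blue for genes 2-fold apart between the controls, dotted lines at 2-fold. Car4 and Nod1 lie far out in the same direction in both pairs, Lefty1, Dnmt3l and S100a13 lie near 0 on the y axis, and Krt8, Zic2 and Fgfbp1 lie in opposite directions.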

How the data were processed

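RNA was measured by sequencing in 1 library of each line. The authors deposited FPKM values per gene symbol, per the file headers; the submitters' processing notes name the build mm9 and, among other tools, TopHat and Bowtie 0.12.7. The sources used here do not give the tool that made the FPKM values, its annotation or the RNA library protocol. The tables hold no counts, and values down to 2.9e-08 FPKM are not steps of whole reads, so depth is unknown. Sums of FPKM were 835259 (wild type) and 938414 (Sall1 het), of which the 10 highest entries held 12.4% and 15.7%.

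Values of a pair were divided by median-ratio factors (1.004 and 0.996, from 11169 genes at 1 FPKM or more in both), a pseudocount of 1 was added, and log2 differences were taken for genes at 5 FPKM or more in at least 1 library, with Python 3.11.15, pandas 2.3.3 and numpy 2.4.6. FPKM levels in the text are as deposited. A fold on log2(FPKM + 1) understates the change of low genes. The calculation was tested on simulated data. Genes named are the SALL, TET and Nnt genes, the 15 largest differences in each direction, the 10 largest at 50 FPKM or more, the 10 largest held in both pairs, up to 4 leading members of each of 42 lists, and Y-linked, Xist and Dlk1-Dio3 genes, with some near-level list members chosen after their values were seen; predicted genes, clones, pseudogenes and small RNAs are not named. Members and lists were chosen with earlier results of these data known. Symbols were matched to RefSeq promoters for 315 and 358 of the genes 2-fold higher in the Sall1 het and in the wild type.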

Additional observations from a re-analysis of the deposited data

Results flagged for a closer look

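In 25 entries, of which 11 are left without predicted genes, clones, pseudogenes and small RNAs, the difference between the controls and the difference between the knockouts were each 2-fold or more and lay in opposite directions; with 1 library a side the contrast of the 2 differences was not tested. Each of the 11 is given with its log2 difference between the controls (Sall1 het minus wild type) and between the knockouts (Sall1 KO minus the library labelled DKO). Higher in the Sall1 het but lower in the Sall1 KO were Epcam (1.51 and -1.08), Fgfbp1 (2.22 and -2.12), Krt18 (1.53 and -2.04), Krt8 (1.22 and -2.06), Lgals3 (1.67 and -1.08), Rhox6 (1.02 and -1.27), Rhox9 (1.13 and -1.39) and Zic2 (1.24 and -1.83). Lower in the Sall1 het but higher in the Sall1 KO were Arc (-1.14 and 1.13), Tmem40 (-1.05 and 1.69) and Tuba3a (-1.32 and 1.19). Without predicted genes, clones, pseudogenes and small RNAs, 0.0956% of genes were 2-fold apart between the Sall1 het and the Sall1 KO. Given that closeness, the rule that picked the 11 itself puts the wild type and the DKO on opposite sides of the Sall1 lines. Epcam was at 40.9 FPKM in the wild type, 118 in the Sall1 het, 123 in the Sall1 KO and 259 in the DKO. Tmem40 was at 16.6, 7.43, 8.48 and 1.91 in the same order. Krt8 and Krt18, which encode partner keratins of simple epithelia, are both among the 11, as are Rhox6 and Rhox9 of the X-linked Rhox cluster.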

How the results depend on the processing

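Each control group holds 1 library, so no replicate could be left out, and no paired analysis was possible because there are no replicate pairs. The number of genes 2-fold apart moved by over 1.5 times only when the level filter was raised to 20 FPKM, which tests fewer genes: 234 were then higher in the Sall1 het and 256 in the wild type. With values as deposited, scaling by the sum without the 100 highest entries, quantile scaling, a pseudocount of 0.1, a filter of 1 or without predicted genes, clones, pseudogenes and small RNAs, the counts ran from 364 to 726 and from 403 to 726. The share of genes lying the same way in the knockout pair again covers only genes past the filter in both pairs. It ran from 87.8% to 89.7% over the scaling, pseudocount and filter settings, with quantile scaling not run for it. It was 90.9% without predicted genes, clones, pseudogenes and small RNAs. Of the 192 named genes and markers past the filter none changed direction while 2-fold apart; Slc7a3 fell short of 2-fold as deposited (0.998) and by the sum (0.967), as did Rhox6 by the sum (0.991). List medians that changed sign were those of TET and base excision (-0.0183 by the sum), and, with the filter, FGF and ERK feedback (-0.218 at 20), histones (-0.0711 at 20), BMP and ID (-0.128 at 1) and metallothioneins and iron (0.111). The filter also moved the median of primitive endoderm genes (-1.06, and -0.267 at 1) and primed epiblast genes (2.13, and 1.79 at 1). It likewise moved that of germline genes (-0.383, and -1.09 at 20) and interferon genes (0.229, and 0.669 at 20). Since depth is unknown, the error of low values is not known.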
